A study of Caenorhabditis elegans with 9 samples.

Results

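The genes described here are 10 regulators of the cell division cycle in embryos of the nematode Caenorhabditis elegans. They are the genes of the cyclins and cyclin-dependent kinases (CDKs) of G1 and the start of S phase (cyd-1, cdk-4, cye-1 and cdk-2), of the S phase and mitotic cyclins and their kinase (cya-1, cyb-1, cyb-2.1, cyb-3 and cdk-1), and of the CDK inhibitor CKI-1. They were taken by name, from probe sets annotated to the gene alone, and all 10 were measured among 17118 genes, by 16 of 20766 such probe sets. A further probe set listed with 2 identifiers for cdk-4 was not used.

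A cyclin binds a kinase that has no activity without it, and the cyclin's synthesis and destruction time the kinase's work. Cyclin D with CDK4 and cyclin E with CDK2 carry a cell through G1 into DNA replication, and A- and B-type cyclins with CDK1 carry it into and through mitosis. CKI-1 belongs to the family of p27, binds cyclin and kinase complexes and holds cells in G1. The first divisions of the worm embryo have no G1 and run on messenger laid down by the mother, while later in embryogenesis most cells leave the cycle and differentiate.

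Embryos of mixed ages were collected by bleaching XX hermaphrodites, and the total RNA of each sample was read by 1 of 9 Affymetrix arrays, which makes 3 for each group. The mothers of control embryos were wild-type N2 worms that had spent 96 hours from the first larval stage on HT115 bacteria with the empty vector L4440. Mothers of smo-1 RNAi embryos were N2 worms grown for 24 hours on HB101 bacteria and then for 72 hours on HT115 bacteria making double-stranded RNA of smo-1, the gene of the modifier protein SUMO. The remaining embryos carried the allele y93 of sdc-2 and had RNAi as well, on the schedule of the smo-1 RNAi mothers; they are called mutant embryos here and sdc-2(y93)+RNAi in the plots. The labels of the mutant samples name RNAi against sdc-2, whose protein recruits the dosage compensation complex to X, whereas the shared growth text names a smo-1 plasmid for both RNAi groups. All worms grew at 20 °C. The feeding schedule of the control differed from that of both other groups, so schedule and perturbation cannot be told apart in comparisons with control. The labels do not say whether replicates were separate cultures, and p-values then reflect only how these samples vary, which may be technical.

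The values are log2 levels after RMA, the authors' normalization, which gives all arrays like distributions and hides any shift common to all transcripts. The number of arrays limits the precision. In a whole-embryo sample, fewer dividing cells and less messenger per cell cannot be told apart. The targeted messenger smo-1 lay at 11.93 ± 0.13 (SD, n = 3) in control, 8.26 ± 0.38 in smo-1 RNAi and 10.88 ± 0.12 in mutant embryos, so it was also lower in mutants. The sdc-2 messenger differed from control in mutants by -0.35 ± 0.16 (limma adjusted p = 0.13) and -1.38 ± 0.10 (1.3e-05) in its 2 probe sets, and her-1, which SDC-2 represses, was 5.57-fold higher. Hybridisation controls gave strong signal on the mutant arrays alone, so genotype and array handling cannot be told apart there. For RNA integrity and labelling, the log2 ratio of 3' to 5' probe sets differed from control by -0.26 to 0.86 over actin, GAPDH, ubiquitin and catalase on smo-1 RNAi arrays and by -0.08 to 0.81 on mutant arrays. The part of these in the results was not tested.

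In the brightest probe sets, the cyclin D gene cyd-1 differed the most of the 10 between smo-1 RNAi and mutant embryos. Among the probe sets of cyd-1, 175670_s_at was the brighter over all 9 arrays only through the mutant arrays, with a mean of 10.01 against 8.91 there. In control and smo-1 RNAi embryos the other probe set was slightly brighter (8.97 against 8.92, and 7.7 against 7.56). In 175670_s_at, cyd-1 lay at 9.08, 8.83 and 8.86 on the control arrays and at 7.76, 7.49 and 7.42 on the smo-1 RNAi arrays. On the mutant arrays this probe set gave 9.97, 10.38 and 9.68. In this probe set no array of any group overlapped those of another group. The level of cyd-1 was 2.58-fold lower in smo-1 RNAi than in control embryos (log2 -1.37 ± 0.17, SE, limma adjusted p = 7.7e-05), and 2.58% of the 8559 genes above the median level had a lower difference. In mutant embryos cyd-1 was 2.12-fold higher than in control (1.08 ± 0.17, limma adjusted p = 0.00081). Between the perturbed groups the difference was 5.47-fold (-2.45 ± 0.17, limma adjusted p = 1.9e-06), and 0.0351% of genes above the median level had a lower value. In its second probe set the difference between the perturbed groups was smaller, -1.21 ± 0.22, less in size than for cya-1, cyb-1 and cyb-2.1, and that of mutant embryos from control was -0.05 ± 0.22.

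The partner kinase gene cdk-4, the only X-linked gene of the 10, behaved otherwise. Control arrays gave cdk-4 (173429_at) at 8.64, 8.42 and 8.56, smo-1 RNAi arrays at 8.70, 8.73 and 8.82, and mutant arrays at 9.39, 10.03 and 9.76. The smo-1 RNAi arrays lay just above those of control without overlap, and the mutant arrays stood clearly apart from both. In smo-1 RNAi embryos cdk-4 differed from control by 0.21 ± 0.14 (limma adjusted p = 0.3). In mutant embryos it was 2.28-fold higher (1.19 ± 0.14, limma adjusted p = 0.0002), and it was 1.97-fold lower in smo-1 RNAi than in mutant embryos (-0.98 ± 0.14, limma adjusted p = 0.00034). The 1380 X-linked genes above the median level had a median of 0.23 in smo-1 RNAi and 0.45 in mutant embryos, against -0.24 and -0.18 for the other 7179 genes. Set among those X-linked genes, cdk-4 was near the middle in smo-1 RNAi embryos, with 702 of them higher, and towards the top in mutant embryos, with 134 higher.

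Cyclin E, made by cye-1, and its kinase CDK-2 promote entry into S phase. The levels of cye-1 (189579_at) were 6.98, 7.0 and 7.0 in control, 6.36, 6.16 and 6.51 in smo-1 RNAi and 7.46, 7.14 and 7.5 in mutant embryos, in the same order as those of cyd-1 and without overlap. In smo-1 RNAi embryos cye-1 fell by 0.65 ± 0.12 (limma adjusted p = 0.0012), a 1.57-fold difference. The smo-1 RNAi arrays of cye-1 read close to the highest of the bacterial controls not present in the samples. The means of those controls ran from 4.73 to 6.18 with a median of 4.93, so this fold may be understated. Its rise in mutant embryos was 0.37 ± 0.12 (limma adjusted p = 0.042). That call was lost without any of control replicates 1, 2 and 3, smo-1 RNAi replicate 1 or mutant replicates 1 and 3, with adjusted p up to 0.13. Between the perturbed groups cye-1 differed by -1.02 ± 0.12 (limma adjusted p = 7.5e-05). The kinase gene cdk-2 (189119_at) lay between 5.79 and 6.11 on all 9 arrays, and its groups overlapped. It is the only 1 of the 10 below the median level of 6.65. With a mean of 5.96 it reads within the range of the bacterial controls, so its level cannot be told securely from background here. It passed the threshold in none of the 3 comparisons (differences of 0.01, -0.13 and 0.13, each with an SE of 0.09, limma adjusted p = 0.98, 0.4 and 0.33).

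**Figure D1:**
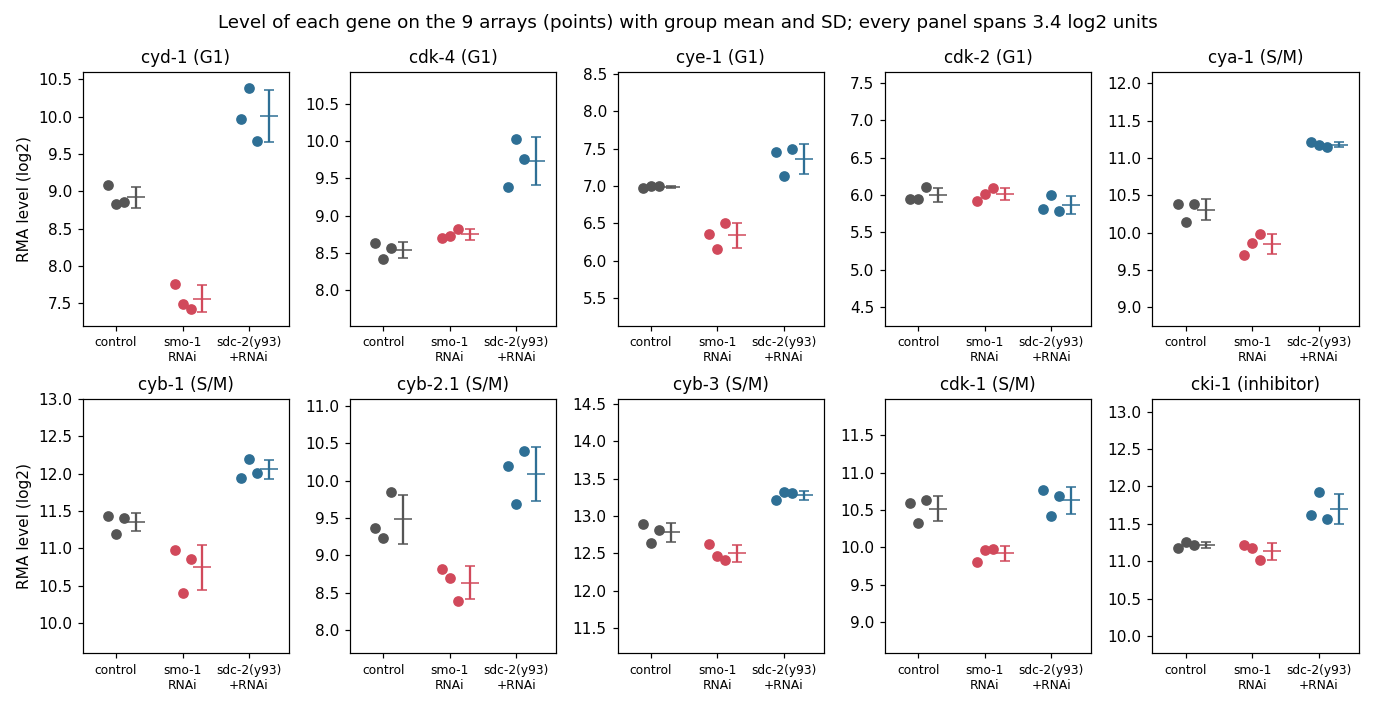
Level of the 10 genes on each array. The vertical axes give the RMA level in log2 units over equal spans, points are arrays, and the bar beside each group is its mean with SD (n = 3). For cyd-1, cye-1, cya-1, cyb-1, cyb-3 and cyb-2.1 the smo-1 RNAi points lie below control and the mutant means above it, whereas cdk-4 and cki-1 stand out in mutant embryos alone and cdk-2 stays between 5.79 and 6.11.

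All 5 S phase and mitotic members fell in smo-1 RNAi embryos. The cyclin A gene cya-1 (173416_at) lay at 10.39, 10.15 and 10.39 in control, 9.70, 9.86 and 9.99 in smo-1 RNAi and 11.21, 11.18 and 11.15 in mutant embryos. Its 3 groups did not overlap, and the mutant arrays were close together. It fell 1.38-fold in smo-1 RNAi embryos (-0.46 ± 0.10, limma adjusted p = 0.0042) and rose 1.82-fold in mutant embryos (0.87 ± 0.10, limma adjusted p = 0.00019), in its brighter probe set. The second probe set of cya-1 (189425_s_at) gave -1.16 ± 0.15 in smo-1 RNAi and 0.26 ± 0.15 in mutant embryos (limma adjusted p = 0.24 for the latter). The brighter probe set of cya-1 had the smallest adjusted p of the mitotic members between the perturbed groups (-1.33 ± 0.10, limma adjusted p = 4.5e-06).

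The B-type cyclins act with CDK-1 in mitosis, and in the worm CYB-1 is needed for chromosome alignment and CYB-3 for the separation of sister chromatids. In its brightest probe set cyb-1 (175636_at) had control values of 11.43 and 11.41 in replicates 1 and 3, with replicate 2 below them (mean 11.35 ± 0.12, SD, n = 3). It lay at 10.98, 10.40 and 10.86 in smo-1 RNAi and 11.95, 12.20 and 12.01 in mutant embryos. These levels of cyb-1 again fell into 3 separate groups, 1.51-fold lower than control in smo-1 RNAi (-0.60 ± 0.15, limma adjusted p = 0.0072) and 1.64-fold higher in mutant embryos (0.71 ± 0.15, limma adjusted p = 0.0044). The dimmer probe sets of cyb-1 did not pass in mutant embryos (0.09 ± 0.15 and -0.30 ± 0.16, limma adjusted p = 0.74 and 0.23). The probe set of cyb-3 (175681_at) had control values of 12.89, 12.64 and 12.81, smo-1 RNAi values of 12.62, 12.46 and 12.41 and mutant values of 13.21, 13.32 and 13.31. The highest smo-1 RNAi array of cyb-3 lay just below the lowest control array. Its fall of -0.28 ± 0.10 in smo-1 RNAi embryos just passed (limma adjusted p = 0.041), and the call was lost without any of control replicates 1 and 3, smo-1 RNAi replicates 2 and 3 or mutant replicate 3, with adjusted p up to 0.56 over all alternatives tried. The rise of cyb-3 in mutant embryos was 0.50 ± 0.10 (limma adjusted p = 0.0032). The second probe set of cyb-3 gave -1.23 ± 0.15 in smo-1 RNAi and -0.12 ± 0.15 in mutant embryos (limma adjusted p = 0.62 for the latter), and the mean of both gave 0.19 in mutant embryos (limma adjusted p = 0.28).

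The gene cyb-2.1 has a near-identical copy, cyb-2.2, and both are read by probe sets whose names end in x_at, which can bind related transcripts, and their signals may be partly shared. The probe set of cyb-2.1 (172738_x_at) gave 9.37, 9.23 and 9.85 in control, 8.82, 8.69 and 8.39 in smo-1 RNAi and 10.20, 9.69 and 10.39 in mutant embryos. Its smo-1 RNAi arrays were below every control array, but the lowest mutant array lay under the highest control array. The level of cyb-2.1 fell 1.80-fold in smo-1 RNAi embryos (-0.85 ± 0.20, limma adjusted p = 0.0065). Its difference of 0.61 ± 0.20 in mutant embryos was at the edge of the threshold (limma adjusted p = 0.048). The call was lost without any single array other than control replicate 3 and mutant replicate 2, with adjusted p up to 0.17. The probe sets of cyb-2.2, from chromosome I where cyb-2.1 is on IV, gave -0.97 ± 0.20 and -1.06 ± 0.19 in smo-1 RNAi and 0.66 ± 0.20 and 0.81 ± 0.19 in mutant embryos, all past the threshold over all probe sets.

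The mitotic kinase gene cdk-1 fell in smo-1 RNAi embryos with its cyclins, but did not pass the threshold in mutant embryos. The probe set of cdk-1 (193939_at) lay at 10.60, 10.33 and 10.63 in control, 9.80, 9.97 and 9.98 in smo-1 RNAi and 10.77, 10.42 and 10.69 in mutant embryos. The smo-1 RNAi arrays were separate, and those of the other groups overlapped. The differences of cdk-1 from control were -0.61 ± 0.12 (1.52-fold lower, limma adjusted p = 0.002) and 0.11 ± 0.12 (limma adjusted p = 0.61). Between smo-1 RNAi and mutant embryos it was -0.71 ± 0.12 (limma adjusted p = 0.00082).

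The inhibitor gene cki-1 rose in mutant embryos in its brighter probe set and did not pass the threshold there in smo-1 RNAi embryos. Its brighter probe set (175786_at) gave 11.18, 11.26 and 11.21 in control, 11.22, 11.17 and 11.01 in smo-1 RNAi and 11.62, 11.93 and 11.56 in mutant embryos. Control and smo-1 RNAi arrays of cki-1 overlapped, and mutant arrays were above both. Against control, cki-1 differed by -0.08 ± 0.11 in smo-1 RNAi embryos (limma adjusted p = 0.63) and rose by 0.49 ± 0.11 in mutant embryos (limma adjusted p = 0.0077). The second probe set of cki-1 gave -0.18 ± 0.14 in mutant embryos (limma adjusted p = 0.41). In its brighter probe set cki-1 was 1.48-fold lower in smo-1 RNAi than in mutant embryos (-0.57 ± 0.11, limma adjusted p = 0.0021).

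**Figure D2:**
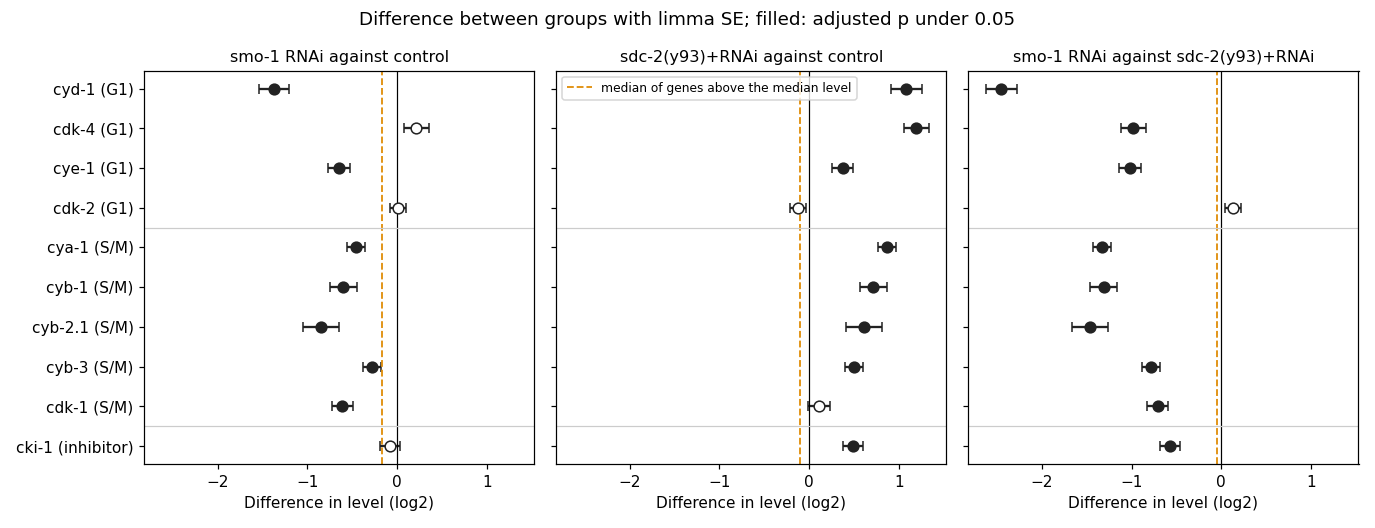
Differences in level of the 10 genes in the 3 comparisons. The horizontal axis is the difference in log2 units, bars are limma SE, filled points passed an adjusted p of 0.05, and the dashed line is the median of the 8559 genes above the median level. The filled points number 7, all below 0, in the first panel, 8, all above 0, in the second, and 9, all below 0, in the third.

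Counted together, 7 of the 10 genes fell and 0 rose in smo-1 RNAi embryos, where 39.9% of all 17118 genes tested passed, 22.2% being lower and 17.8% higher. The 7 are both G1 cyclins and the 5 S phase and mitotic members. The median difference over the 10 was -0.53, with -0.60 for the S phase and mitotic members and -0.32 for the 4 G1 members. Of the 8559 genes above the median level, which hold 9 of the 10, 38.2% fell and 22.5% rose, with a median of -0.17. The arrays of smo-1 RNAi and control did not overlap for 8 of the 10 genes, and for 55.1% of all genes. With each array centred on autosomal genes above the median level, 4 of the 10 were called lower, cyd-1, cye-1, cyb-2.1 and cdk-1, and the differences of cya-1, cyb-1 and cyb-3 were -0.26, -0.40 and -0.08 there.

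In mutant embryos 8 of the 10 genes were higher than in control and 0 lower, where 26.5% of all genes passed, 10.9% higher and 15.6% lower. The exceptions were the kinase genes cdk-1 and cdk-2, while the kinase gene cdk-4 rose. The median difference over the 10 was 0.56, beside -0.10 for genes above the median level, of which 19.8% rose and 28% fell. The groups did not overlap for 7 of the 10, and for 37.8% of all genes. These counts rest on the brightest probe set of each gene, ranked with the mutant arrays included, which favours probe sets high in mutants. By control level alone the other probe set was the brighter for cyd-1, cyb-3 and cki-1, though not for cya-1 and cyb-1. Those other probe sets of cyd-1, cyb-3 and cki-1 gave -0.05, -0.12 and -0.18 in mutant embryos and did not pass. With the least bright probe set of each gene, an alternative chosen after seeing the data, 2 of the 10 rose (cdk-4 and cye-1), and with its probe sets averaged 3 did.

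Compared directly, the smo-1 RNAi level was below the mutant level for 9 of the 10 genes and above it for 0, where 35.6% of all genes passed, 17.2% lower and 18.4% higher. Of genes above the median level 30.8% were lower. All but cdk-2 passed, and their differences ran from -0.57 for cki-1 to -2.45 for cyd-1, with a median of -1.0 over the 10 and -0.05 over genes above the median level. The arrays of the 9 genes did not overlap, as for 42.9% of all genes. The count stayed at 9 under each alternative for probe sets, scaling and arrays in which all 10 were measured, and fell to 8 with a minimum fold of 1.5, where cki-1 was lost. Without probe sets that can bind related transcripts cyd-1 and cyb-2.1 were not measured. Here too, the mutant arrays alone carried the hybridisation controls.

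The probe sets of a gene disagreed on the mutant embryos. A total of 5 genes, cyd-1, cya-1, cyb-1, cyb-3 and cki-1, were read by more than 1 probe set of their own. Probe sets were ranked by their mean over all 9 arrays, mutant arrays included, so the choice of the brightest favours those high in mutants. In control the second probe set was slightly brighter for cyd-1 (8.97 against 8.92), cki-1 (11.26 against 11.22) and cyb-3 (12.8 against 12.78). For cya-1 and cyb-1 it was dimmer there. In mutant embryos all 5 brightest probe sets of these genes were higher than control, with a median of 0.71. Of their 6 other probe sets 0 passed in either direction, with a median of -0.09. Over all 20766 probe sets 11.6% were higher and 16.9% lower. For cyd-1 the second probe set (188351_s_at) gave 9.15, 8.85 and 8.90 in control and 9.24, 8.90 and 8.61 in mutant embryos, overlapping throughout, a difference of -0.05 ± 0.22 (limma adjusted p = 0.9). Both dimmer probe sets of cyb-1 (171947_x_at and 188409_s_at) gave 0.09 ± 0.15 and -0.30 ± 0.16, and those of cyb-3, cki-1 and cya-1 gave -0.12 ± 0.15, -0.18 ± 0.14 and 0.26 ± 0.15.

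In smo-1 RNAi embryos the other probe sets fell, most of them further than the brightest. Of these 6, all fell, with a median of -1.25 beside -0.46 for the 5 brightest, and 24.6% of all probe sets were lower and 17.2% higher. The dimmest probe set of cyb-1 (188409_s_at) had the largest fall among the 16 probe sets: it lay at 10.22, 10.00 and 10.19 in control and at 7.80, 8.47 and 7.92 in smo-1 RNAi embryos (-2.08 ± 0.16, limma adjusted p = 3.6e-06). The second probe set of cyb-3 fell by 1.23 ± 0.15, that of cya-1 by 1.16 ± 0.15 and that of cyd-1 by 1.27 ± 0.22. The second probe set of cki-1 (178704_s_at) gave 11.16, 11.36 and 11.25 in control and 10.79, 10.53 and 10.40 in smo-1 RNAi embryos, without overlap. It fell by 0.69 ± 0.14 (limma adjusted p = 0.0023), where the brighter one did not pass.

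Between smo-1 RNAi and mutant embryos every probe set of these 5 genes was lower, 11 in all, with medians of -1.31 for the brightest and -1.28 for the others, where 18.9% of all probe sets were lower and 17.7% higher. The gap between probe sets was not limited to these genes. Over all 2981 genes with several probe sets, the brightest gave a higher difference than the least bright in 68.9% of genes in mutant embryos, by a median of 0.22, and in 68.7% in smo-1 RNAi embryos, by 0.20. In the direct comparison the share was 46.9% and the median -0.03. For 1803 of these genes the brightest and least bright probe sets both lay above the median level. Their medians were 0.37 in mutant embryos, 0.29 in smo-1 RNAi embryos and -0.08 in the direct comparison. For the 5 cell cycle genes the median gap was 0.67 in mutant embryos, with all 5 above 0, 0.69 in smo-1 RNAi embryos, with 4 above 0, and 0.09 in the direct comparison. Probe positions within transcripts were not used here. The ranking by level used the perturbed arrays too, which by itself favours gaps above 0 in both comparisons with control. Neither its part in these gaps nor that of the 3' to 5' differences was tested.

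**Figure D3:**
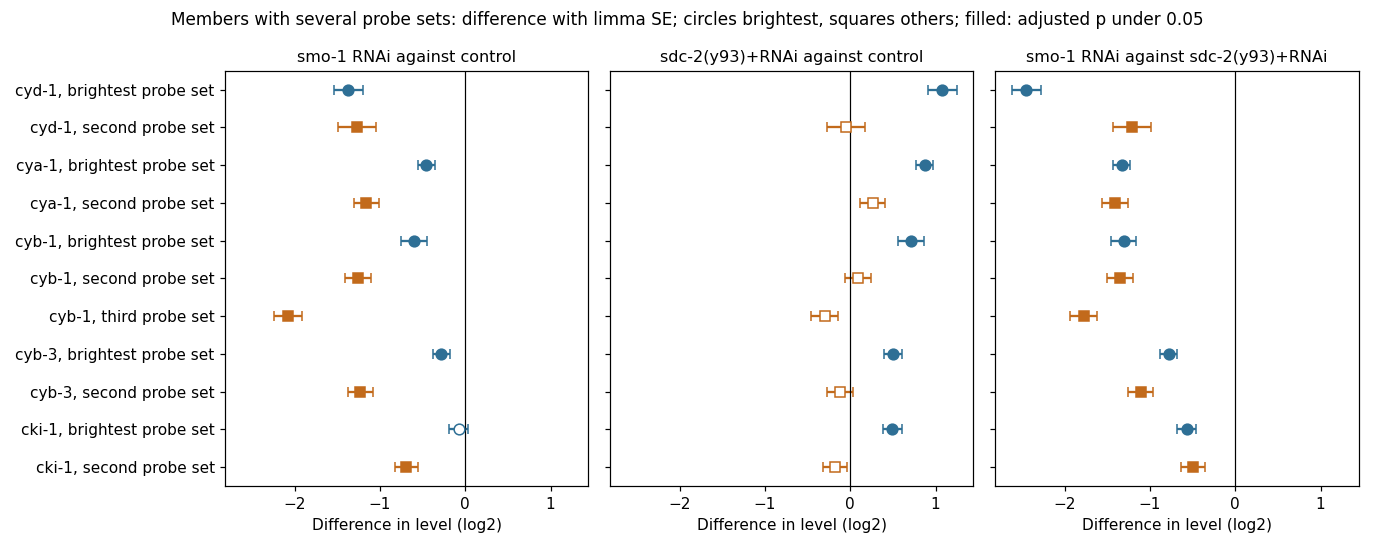
Differences in level for each probe set of the 5 genes with more than 1. The horizontal axis is the difference in log2 units with limma SE, circles are the brightest probe sets and squares the others, and filled symbols passed an adjusted p of 0.05 over 20766 probe sets. In the middle panel all 5 circles are filled and above 0 and all 6 squares are open, while in the right panel all 11 symbols are filled and below 0.

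Genes that act around these cyclins and kinases were counted from lists chosen by role, and most of them lie above the median level. Of all genes above that level, 38.2% fell and 22.5% rose in smo-1 RNAi embryos, 28% fell and 19.8% rose in mutant embryos, and 30.8% were lower in the direct comparison. Of 21 measured S phase genes, which make nucleotides, license origins and copy DNA, 20 fell and 0 rose in smo-1 RNAi embryos, with a median of -0.98. The primase gene pri-1 fell by 1.37 ± 0.12 (limma adjusted p = 7.4e-06), mcm-6 of the replicative helicase by 1.44 ± 0.17 and mcm-7 by 0.92 ± 0.11. In mutant embryos 1 of the 21 rose and 1 fell, with a median of -0.04: the origin recognition gene orc-2 rose by 0.42 ± 0.12 (limma adjusted p = 0.028) and the gene of the single-strand binding protein rpa-2 fell by 0.87 ± 0.16 (limma adjusted p = 0.0026). Directly compared, 19 of the 21 were lower in smo-1 RNAi embryos.

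Of 31 measured genes of mitotic entry and exit, 21 fell and 2 rose in smo-1 RNAi embryos, with a median of -0.81. Among those that fell were cks-1, which makes the small subunit of CDK complexes (-1.17 ± 0.10, limma adjusted p = 7.4e-06), cdc-25.2, of the phosphatase family that activates CDK1 (-1.12 ± 0.11, limma adjusted p = 1.3e-05), and emb-1 of the anaphase-promoting complex (-1.32 ± 0.14, limma adjusted p = 2.8e-05). The 2 that rose were the polo-like kinase gene plk-3 (2.07 ± 0.11, limma adjusted p = 2.4e-07) and such-1 (0.71 ± 0.15, limma adjusted p = 0.0035), whose control mean of 5.69 lies within the range of the bacterial controls, so that its fold is uncertain. By its name, the probe set of plk-3 can also bind related transcripts. In mutant embryos 3 rose and 5 fell, with a median of -0.04. The polo-like kinase gene plk-1 rose by 0.45 ± 0.09 and cdc-25.1 by 0.52 ± 0.11, while cks-1 changed by -0.69 ± 0.10 and emb-1 by -0.94 ± 0.14. Compared directly, 20 were lower and 4 higher in smo-1 RNAi embryos, plk-1 by -1.15 ± 0.09 (limma adjusted p = 5.6e-06).

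Of 16 genes of G1 and S phase control, 15 lie above the median level. Under smo-1 RNAi, 7 were lower and 1 higher, with a median of -0.21, near the values for all genes above that level (38.2% lower, median -0.17). Those lower include the replication licensing gene cdt-1 (-1.28 ± 0.14, limma adjusted p = 3.2e-05), dpl-1, the partner of E2F (-1.43 ± 0.24, limma adjusted p = 0.00068), and lin-35, the worm retinoblastoma gene (-0.59 ± 0.11, limma adjusted p = 0.0018). The gene skr-2, of the Skp1-related family, rose by 0.45 ± 0.15 (limma adjusted p = 0.034). In mutant embryos 2 rose and 0 fell: lin-36 by 0.85 ± 0.11 (limma adjusted p = 0.00038) and fzr-1, of the activator of the anaphase-promoting complex in G1, by 0.81 ± 0.14 (limma adjusted p = 0.0019). The direct comparison gave 7 lower and 2 higher in smo-1 RNAi embryos. Centring arrays on autosomal genes above the median level raised the differences from control by 0.20 in smo-1 RNAi and 0.26 in mutant embryos. With that centring 17 S phase genes, 20 mitotic genes and 4 G1 control genes fell in smo-1 RNAi embryos, where 14.6% of all genes were lower. In mutant embryos 10, 12 and 6 were then higher, where 40.3% of all genes were, so these counts are near the share of all genes. With centring on all autosomal genes 21, 22 and 8 fell in smo-1 RNAi embryos (30.2% of all genes) and 2, 3 and 3 rose in mutant embryos (13.2% of all genes).

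Early zygotic genes were lower where the cyclins were, in smo-1 RNAi embryos. Of 17 measured early zygotic genes, 10 fell and 0 rose, with a median of -0.80 and a mean level per array of 6.88 to 7.07 against 7.55 to 7.78 in control. Of all genes 22.2% fell, and 38.2% of genes above the median level, which hold 11 of the 17. In control the early genes med-1, tbx-37 and sdz-23 lay at 4.96, 4.89 and 5.27, near the bacterial controls, where a fall could hardly show. Genes above the median level, of which 22.5% rose and 38.2% fell, hold 24 of 25 markers of differentiated tissues. Of these 25 markers 12 rose and 4 fell, with a median of 0.38. Their mean levels per array were 10.69 to 10.85 against 10.14 to 10.40 in control. Those that rose include the gut protease gene cpr-1 (3.45 ± 0.10) and egl-21 (1.77 ± 0.12) and egl-3 (2.08 ± 0.15), whose enzymes process neuropeptides. Those that fell include the cuticle collagen gene dpy-7 (-0.78 ± 0.10), the epidermal gene lin-26 (-0.73 ± 0.13) and the gut esterase gene ges-1 (-0.61 ± 0.10), so gut markers differed in direction. Markers of body wall muscle did too: unc-54 (1.02 ± 0.09) and unc-15 (0.84 ± 0.11) rose, myo-3 fell (-0.49 ± 0.13) and tnt-3 did not pass. The neuronal markers snb-1 and rab-3 rose, and unc-104 did not pass (-0.23 ± 0.18). In mutant embryos 3 early genes rose and 2 fell, and 7 tissue markers rose and 5 fell, with mean levels per array of 7.62 to 7.77 and 10.23 to 10.39, within or beside the control ranges. The 7 and 5 of 25 tissue markers are near the 19.8% higher and 28% lower of all genes above the median level. Beside the 3 and 2 of 17 early genes, 10.9% of all genes were higher and 15.6% lower in mutant embryos. The part of embryo age in the differences of the cyclins, kinases and cki-1 was not tested.

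**Figure D4:**
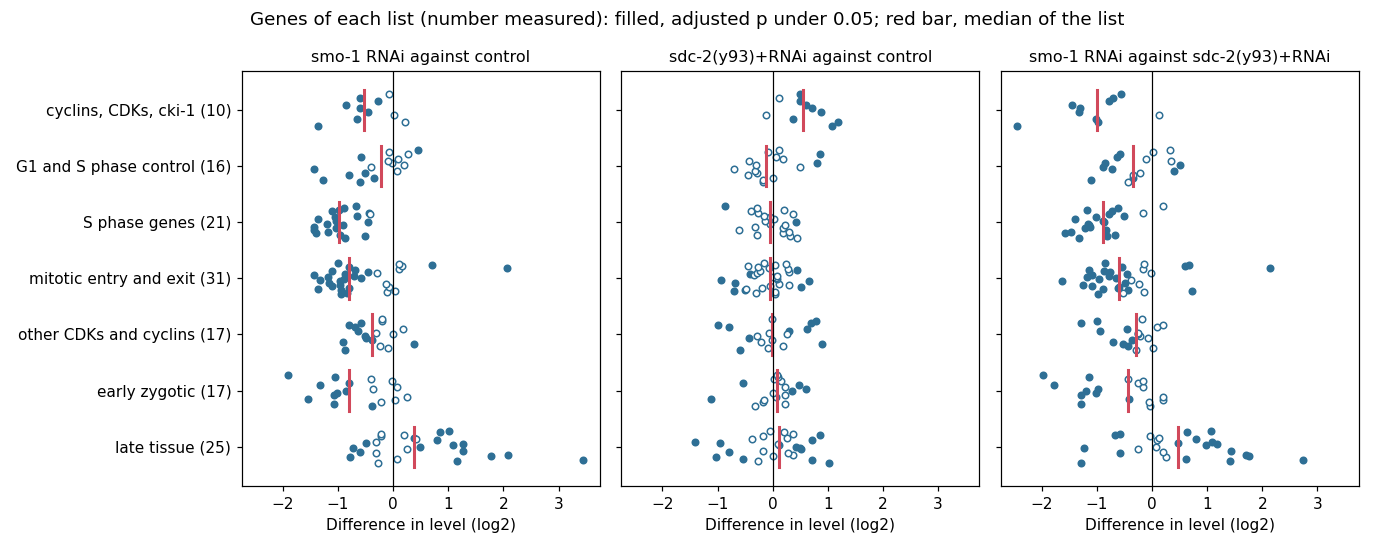
Differences in level of the 10 genes and of 6 lists of related or stage-specific genes. The horizontal axis is the difference in log2 units, each point is 1 gene, filled points passed an adjusted p of 0.05, and the red bar is the median of the list. In smo-1 RNAi against control the medians are -0.98 for S phase genes, -0.81 for mitotic entry and exit and 0.38 for tissue markers, and in mutant against control they are -0.04, -0.04 and 0.11, with 0.56 for the 10 cyclin, CDK and cki-1 genes.

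The genes whose pattern over the 9 arrays was most like that of cdk-1 and cki-1 differed. Among 8558 other genes above the median level, those most like cdk-1 were rnr-2, the small subunit of ribonucleotide reductase (Pearson r = 0.9915), AH9.3 (0.9890) and ceh-83 (0.9857). Like cdk-1, rnr-2 was low in smo-1 RNAi embryos alone, at 10.53 ± 0.09 against 11.51 ± 0.23 in control and 11.73 ± 0.26 in mutant embryos (SD, n = 3). For the brighter probe set of cki-1 they were unc-3, a transcription factor gene of motor neurons (0.9890), ret-1 (0.9823) and C34F6.5 (0.9802). The second probe set of cki-1, which did not pass in mutant embryos, was not used for this. The X-linked unc-3 lay at 9.24 ± 0.12 in control, 9.07 ± 0.12 in smo-1 RNAi and 9.95 ± 0.28 in mutant embryos. Of the others, C34F6.5 and AH9.3 are X-linked too. These correlations are descriptions over arrays that fall into 3 groups and share their group differences.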

How the data were processed

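Embryo RNA was hybridised to 9 Affymetrix C. elegans arrays, grouped by their titles. The deposited values are log2 levels that the authors made with RMA in Expression Console, per the submitters' processing notes; its version and options are not stated there. Medians of the arrays ran from 6.51 to 6.72. Of 22625 probe sets, 77 manufacturer controls, 887 listed with several genes and 895 without annotation were left out, and 20766 remained, 20701 of which had their identifier in RefSeq's gene table (WBcel235). For each of 17118 genes the brightest probe set over all arrays was used. No low values were filtered.

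All genes entered 1 limma 3.58.1 fit (R 4.3.3; lmFit, eBayes, 6 residual degrees of freedom, no covariate). P-values are two-sided and adjusted by Benjamini-Hochberg across the genes fitted, with calls at 0.05. A like fit over 20766 probe sets gave the values of further probe sets. The fit over genes was tested on simulated data. Members, lists and tests were chosen with earlier results of these data known. Named genes are the 10 members, smo-1 as a check and the 3 most like cdk-1 and cki-1. Up to 3 genes a list, comparison and direction are also named, by adjusted p. Values of cyb-2.2, sdc-2, her-1, the yolk and sperm genes, rme-2, med-1, tbx-37, sdz-23, rnr-2 and unc-3 were added after their values were seen. So were those of unc-54, unc-15, myo-3, tnt-3, snb-1, rab-3 and unc-104. Alternatives covered probe sets, low values, eBayes settings, array weights, the replicate block, scaling, thresholds and leaving out each array.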

Additional observations from a re-analysis of the deposited data

Results flagged for a closer look

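The phage control cre, added to the labelled material, lay between 12.98 and 13.23 on the mutant arrays and between 5.25 and 5.34 on the control arrays, a difference of 7.83 on the log2 scale, which drew attention because it lies outside the embryo transcripts. On the smo-1 RNAi arrays cre lay between 4.94 and 5.09. Its part in the rises of cyd-1, cdk-4, the A- and B-type cyclins and cki-1 in mutant embryos cannot be told apart from that of the group.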

How the results depend on the processing

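The direct comparison was the steadiest: 9 of 10 genes were lower in smo-1 RNAi embryos without any single array (9 to 9), and 0 were higher. Without single arrays 6 to 7 fell in smo-1 RNAi embryos and 6 to 8 rose in mutant embryos. Centred on autosomal genes above the median level, 4 fell in smo-1 RNAi embryos. In mutant embryos 3 rose with the mean of all probe sets, 2 with the least bright probe sets (chosen after seeing the data) and 5 with a minimum fold of 1.5. Over single genes and alternatives, 595 values kept direction and side of the threshold, 41 lost the call, 3 gained it and 12 changed sign. With the least bright probe sets, cyd-1, cyb-1, cyb-3 and cki-1 turned to -0.05, -0.30, -0.12 and -0.18 in mutant embryos. Centred on autosomal genes above the median level, cki-1 was 0.12 in smo-1 RNAi embryos and cdk-2 0.13 in mutant embryos. The other sign changes were of cdk-2 near 0: in smo-1 RNAi embryos -0.13 centred on autosomal genes, -0.14 quantile-normalized again, and -0.02, -0.02 and -0.04 without control replicates 1 and 2 and smo-1 RNAi replicate 3 (up to 0.06 without control replicate 3), and in the direct comparison -0.06 centred on autosomal genes. Apart from the probe set choices, the cause was not tested.

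The replicate numbers showed no clear pairing of the arrays: same-numbered arrays had deviations correlated between -0.301 and 0.381 in 9 pairs, others between -0.419 and 0.287. Between control and mutant arrays the same-numbered values were 0.074, 0.381 and 0.28. Those with smo-1 RNAi arrays ran from -0.301 to 0.124. With 3 arrays in each group these correlations cannot settle whether the arrays were paired. With the replicate number as a block, 6, 8 and 9 of the 10 genes were called in the 3 comparisons, cyb-3 being lost in smo-1 RNAi embryos (-0.28, limma adjusted p = 0.059), and 3034 genes were higher and 3795 lower in smo-1 RNAi embryos.

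Over all genes, in smo-1 RNAi against control 3039 were higher and 3794 lower. Without single arrays these were 2552 to 3396 and 3126 to 4176, above the median level 1994 were higher, centred on autosomal genes above that level 4967 and 2492, and at 1.5-fold 2245 were lower. In mutant against control 1860 and 2675 became 1432 to 1918 and 2085 to 2638 without single arrays, 6901 and 1480 with that centring, 1231 and 1755 at an adjusted p of 0.01, and 1059 and 1514 at 1.5-fold. There 1199 were higher with the least bright probe sets and 1775 lower without probe sets that can bind related transcripts. Directly compared, 3154 and 2947 became 2706 to 3371 and 2466 to 3428 without single arrays, 6405 were lower centred on autosomal genes and 1668 at 1.5-fold.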

Other observations

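Other kinases and cyclins, most of which serve transcription or neurons, were measured for 17 of 18 listed genes. In smo-1 RNAi embryos 9 fell and 1 rose, with a median of -0.39. All 17 lie above the median level, where 38.2% of genes fell and 22.5% rose (28% and 19.8% in mutant embryos). The fall of cdk-5, a kinase of differentiated neurons, was -0.92 ± 0.13 (limma adjusted p = 0.00017), ccnk-1 changed by -0.88 ± 0.12 and cit-1.1, 1 of the cyclin T genes, by -0.64 ± 0.08, while cdk-12 rose by 0.37 ± 0.12 (limma adjusted p = 0.032). In mutant embryos 5 rose and 4 fell, with a median of -0.02: cdk-12 rose by 0.90 ± 0.12 and mnat-1, of the CDK-activating kinase, by 0.79 ± 0.14, while cyl-1 changed by -0.99 ± 0.16 and the cyclin H gene cyh-1 by -0.79 ± 0.16.

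Of 11 measured genes of adult yolk, sperm and oocytes, the yolk genes vit-2, vit-4, vit-5 and vit-6 and the sperm genes spe-9, spe-11 and fer-1 lay at group means of 4.74 to 6.25, near the bacterial controls not present in the samples. A fall of these yolk and sperm genes could hardly show. In smo-1 RNAi embryos 4 of the 11 fell, where 22.2% of all genes were lower. They were the oocyte genes oma-1 (-1.03 ± 0.15), oma-2 (-1.19 ± 0.21), cpg-1 (-1.09 ± 0.15) and rme-2 (-0.44 ± 0.12). These 4 are those of the 11 above the median level, where 38.2% of genes fell. In mutant embryos 0 of the 11 passed by limma, where 26.5% of all genes did.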
